A study of Mus musculus with 3 samples.

Results

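The alpha catenins are a family of 3 genes in the mouse, Ctnna1, Ctnna2 and Ctnna3, and their DNA was read here along the genome in 3 neurosphere lines grown from gliomas. All probes that the array design names for these genes were taken, which gave 288 of 170305 probes and 3 of the 21138 gene names on the array. Ctnna1 had 15 probes, Ctnna2 had 113 and Ctnna3 had 160. Within Ctnna2, a stretch of 10 neighbouring probes was set apart because of its low ratios in these same arrays. The ratios of that stretch are therefore given as a description, with no test.

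Alpha catenins join the complex of cadherin and beta-catenin at cell contacts to the actin skeleton. Ctnna1 is the broadly used member and is best known from epithelia, Ctnna2 (alphaN-catenin) is the member of neurons, and Ctnna3 (alphaT-catenin) is known from heart and testis. Ctnna2 and Ctnna3 are very long genes, and each alpha catenin gene hosts or overlaps a gene of the Lrrtm family of synaptic adhesion proteins.

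The arrays compared genomic DNA of each neurosphere line, labelled with Cy5, with mouse liver DNA, labelled with Cy3. Neurospheres are floating cultures of tumour or neural stem cells. Per the labels, the tumours were resistant to an inhibitor of CSF-1R, the receptor on which macrophages and microglia depend, and the lines were taken at passages 2 to 3 in a medium for mouse neural stem cells. The 3 lines form 1 group, and each liver carries the animal number of its line. Lines 2 and 3 share 1 animal number and 1 liver label, while line 1 has its own, so the 3 lines are not 3 separate animals. Where n = 3 is given, it counts lines. The gene tests treated the lines as independent, so their p-values may be too small and reflect the spread of these samples alone. The strain, the genotype of the tumours, the inhibitor and its dose are not given in the sources used here. All arrays lay on 1 slide and none had the dyes swapped, so dye and slide cannot be told apart from the difference between line and liver.

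Values are log2 of Cy5 over Cy3, centred on the median of the 161460 autosomal probes of each array. A positive log2 ratio means more signal from the line than from liver. Loss of 1 of 2 copies in every cell of a line would ideally give -1 on this scale; how far these arrays compress ratios was not measured. The array of line 1 was the noisiest and the dimmest. The spread of log2 ratios between neighbouring probes was 0.232 on the array of line 2 and 0.238 on that of line 3, against 0.384 on that of line 1. Median raw intensities in Cy5 were 551 and 711, against 414, and in Cy3 they were 305 and 416, against 163, in the same order of arrays. No spot of an alpha catenin probe was saturated or marked as an outlier. Of the 288 probes, 9 were not well above background in at least 1 channel of 1 array, and none of these lay in the stretch.

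The stretch spans chr6:77633344-77717308 (mm9), which is 84.0 kb and 7.84% of the span from the first to the last Ctnna2 probe. Whether its probes lie in exons or introns was not read, since exon annotation of mm9 was not used here. The following probes are shown because the results turn on them. Probes 1 and 10 are the edges of the stretch, probe 4 is the member with a higher level in both channels on the arrays of lines 2 and 3, and probe 8 had the lowest ratio. Each is written as the scanner files give it, in lower case throughout because no base is singled out.
Probe 1, chr6:77633344-77633403: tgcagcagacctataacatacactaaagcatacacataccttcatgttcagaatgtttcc
Probe 4, chr6:77658531-77658590: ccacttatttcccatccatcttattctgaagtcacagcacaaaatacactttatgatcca
Probe 8, chr6:77695584-77695643: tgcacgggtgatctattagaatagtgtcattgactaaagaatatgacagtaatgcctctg
Probe 10, chr6:77717249-77717308: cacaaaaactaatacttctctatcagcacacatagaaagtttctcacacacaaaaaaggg
The base composition of the stretch was close to that of its gene, with 37.5% G and C on average over the 10 probes and 36.8% over the other 103 Ctnna2 probes. A CG pair occurred in 3 of the 10 probes, a share of 30.0%, against 28.2% of the other Ctnna2 probes and 36.1% of all autosomal probes.

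Within Ctnna2, the low ratios were concentrated in this stretch in lines 2 and 3. The 10 probes averaged a log2 ratio of -0.75 in line 2 and -0.75 in line 3, with an SD over probes of 0.26 and 0.22. In line 1 they averaged -0.34, with an SD of 0.34. The other 103 probes of the gene averaged -0.07 for line 2, -0.02 for line 3 and -0.03 for line 1. The stretch thus lay below the rest of its gene by 0.67 for line 2, 0.73 for line 3 and 0.30 for line 1. Over the lines the stretch averaged -0.61 ± 0.24 (SD, n = 3), and its difference from the rest of the gene averaged -0.57 ± 0.23 (SD, n = 3).

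A log2 ratio of -0.5 or less was found in 9 of the 10 probes for line 2, 9 for line 3 and 4 for line 1. Across all autosomal probes this share was 1.37% for line 2, 2.08% for line 3 and 10.2% for line 1. The probes were chosen on these ratios, so nothing is read from that contrast. Among the other 103 Ctnna2 probes, 4 were that low for line 2, 3 for line 3 and 11 for line 1.

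**Figure D1:**
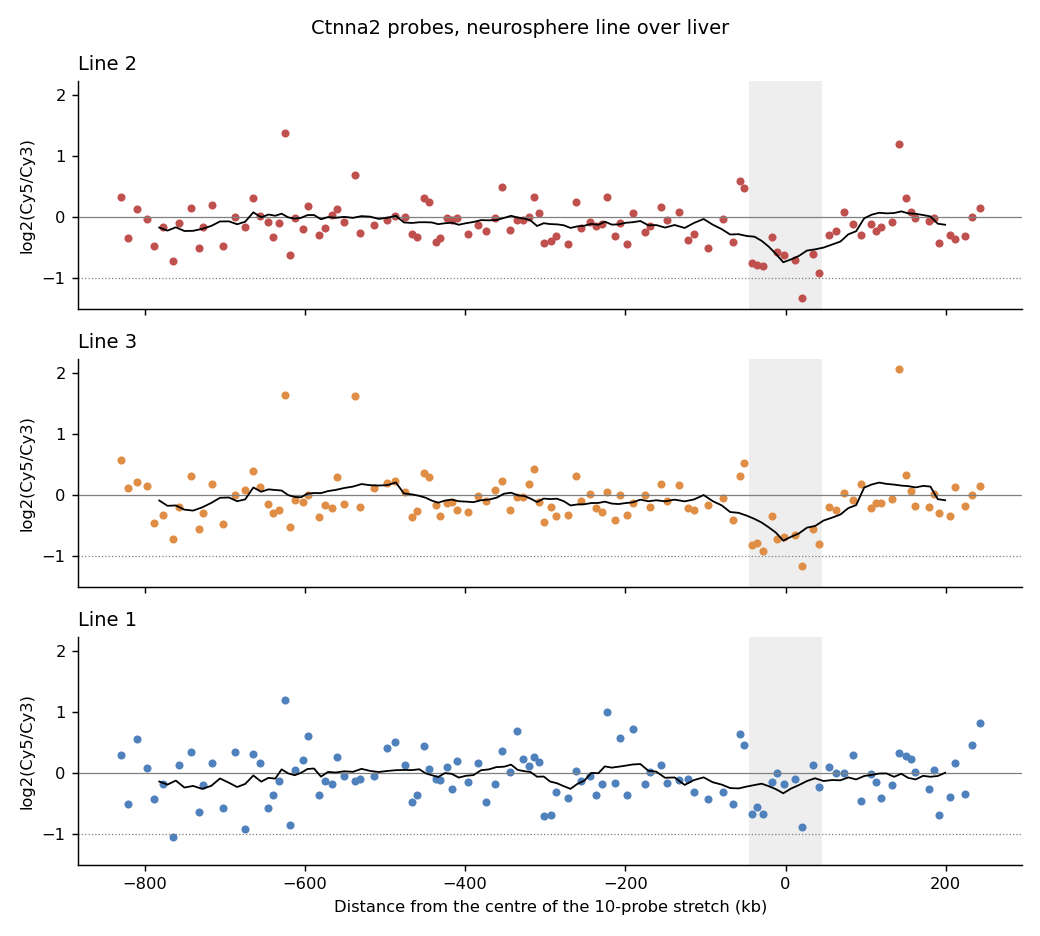
Log2 of Cy5 over Cy3 (vertical axes) for the 113 Ctnna2 probes by distance in kb from the centre of the 10-probe stretch (grey), with a panel each for line 2, line 3 and line 1. Points are probes, black lines are running means of 10 probes, and the dotted line marks -1. The running mean dips to -0.75 at the stretch in lines 2 and 3, and the mean of the stretch in line 1 was -0.34.

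The 10 probes did not act alike. Probes 1 to 3 were low in every line, though in line 1 their mean depended on the background correction (-0.38 with normexp). Their mean log2 ratios were -0.79 for line 2, -0.85 for line 3 and -0.64 for line 1. Probe 4 was the mildest, at -0.33, -0.35 and -0.16 in the same order. Probes 5 to 10 separated the lines most clearly, averaging -0.80 in line 2 and -0.77 in line 3, against -0.21 in line 1. Of these 6 probes, probe 9 stood at -0.61 in line 2 and -0.57 in line 3, against 0.13 in line 1. Probe 10 stood at -0.92 and -0.81, against -0.23. At each of the 10 probes the ratios of lines 2 and 3 were below that of line 1. With lines 2 and 3 averaged, this held at 77868 of the 161460 autosomal probes and 55 of the other 103 Ctnna2 probes.

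Probe 8 had the lowest ratio of the stretch in every line, at -1.34 for line 2, -1.17 for line 3 and -0.90 for line 1. It ranked 1 from the bottom of 161456 autosomal probes in line 2, 2 of 161459 in line 3 and 1567 of 161454 in line 1. Probe 10 ranked 4 in line 2 and 60 in line 3, but 45580 in line 1. Probe 10 was thus among the lowest in lines 2 and 3 and well inside the range in line 1. Probe 4 ranked 13617 in line 2, 12701 in line 3 and 56213 in line 1. The stretch was chosen on these same ratios, so the low ranks are a description and nothing is read from them.

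The edges were abrupt on the side of lower coordinates. The last 2 probes before the stretch, which start at 77618169 and 77623917, stood at 0.60 and 0.48 in line 2, 0.32 and 0.52 in line 3, and 0.63 and 0.46 in line 1. The first 2 probes after it, which start at 77730029 and 77737790, stood at -0.29 and -0.23 in line 2, -0.19 and -0.25 in line 3, and 0.10 and 0.00 in line 1. The 40 Ctnna2 probes that flank the stretch, 20 on each side, averaged -0.07 for line 2, -0.03 for line 3 and -0.02 for line 1. The ratios above 0 just before the stretch were therefore not those of the wider flank.

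The stretch was also set beside all runs of 10 consecutive probes along the autosomes. Of 161179 overlapping runs, 0.0062% had a mean of -0.5 or less for line 2, 0.00434% for line 3 and 0.0105% for line 1. These shares include the stretch: 7 of the 10 such runs in line 2, 7 of 7 in line 3 and 0 of 17 in line 1 held at least 1 of its probes. The stretch itself was the lowest run of all in lines 2 and 3, as it was chosen to be low. The lowest run without a probe of the stretch stood at -0.59 in line 2 and -0.496 in line 3. In line 1 the lowest run stood at -0.55, below the -0.34 of the stretch. Outside the stretch, the 85 runs within Ctnna2 spanned -0.23 to 0.09 in line 2, -0.26 to 0.20 in line 3 and -0.26 to 0.14 in line 1.

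The channels were then taken apart, because a ratio can fall through less signal from the line or through more from liver. Each channel was put on a log2 scale, centred on its own autosomal median and compared between arrays at the same probe. Both comparisons use the array of line 1, so they are not independent of each other. In Cy5, the DNA of the lines, the stretch had a centred level of -0.25 in line 2 and -0.23 in line 3, against 0.16 in line 1. In Cy3, the liver DNA, it had 0.51 on the array of line 2 and 0.54 on that of line 3, against 0.50 on that of line 1. The Cy5 difference was -0.41 for line 2 and -0.39 for line 3, and the Cy3 difference was 0.01 and 0.04. Hence the mean level differed between these arrays in the neurosphere channel and hardly at all in the liver channel.

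Averaged over lines 2 and 3, the Cy5 level was below that of line 1 at 9 of the 10 probes, and the Cy3 level at 6 of the 10. Of the 161460 autosomal probes, 81382 were below in Cy5 and 82830 in Cy3. Of the other 103 Ctnna2 probes, 64 were below in Cy5 and 56 in Cy3. For the other 103 Ctnna2 probes, the mean Cy5 difference was -0.07 for line 2 and 0.00 for line 3, and the mean Cy3 difference was -0.02 and 0.00. Among all autosomal runs of 10 probes, 0.0682% had a Cy5 difference of -0.3 or less and 0.173% had such a Cy3 difference. The SD over runs was 0.075 in Cy5 and 0.093 in Cy3. Of the 19 Ctnna2 runs with at least 1 probe of the stretch, 4 had a Cy5 difference that low and 0 had such a Cy3 difference. These 4 runs overlap each other and are part of the autosomal share. The stretch was chosen on ratios of these 2 channels, so its channel values are a description and nothing is read from that contrast.

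By probe, the channels split the stretch into the same sections. Probes 5 to 10 had a Cy5 difference of -0.54 for line 2 and -0.48 for line 3, negative at each of the 6, with Cy3 differences of 0.04 and 0.08. At probes 1 to 3 both channels were lower on the arrays of lines 2 and 3, by -0.39 and -0.47 in Cy5 and by -0.25 and -0.25 in Cy3. At probe 4 both channels were higher, by 0.36 and 0.42 in Cy5 and by 0.53 and 0.63 in Cy3. Of the 3 sections, only in probes 5 to 10 was the mean of the neurosphere channel low with a mean liver channel near that of line 1. That liver mean joins differences of both signs, from -0.14 to 0.30 at single probes, and 3 of the 6 probes averaged below 0. At probe 7 the Cy3 differences were 0.18 for line 2 and 0.30 for line 3, beside -0.43 and -0.27 in Cy5. The sections were drawn after seeing these data.

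**Figure D2:**
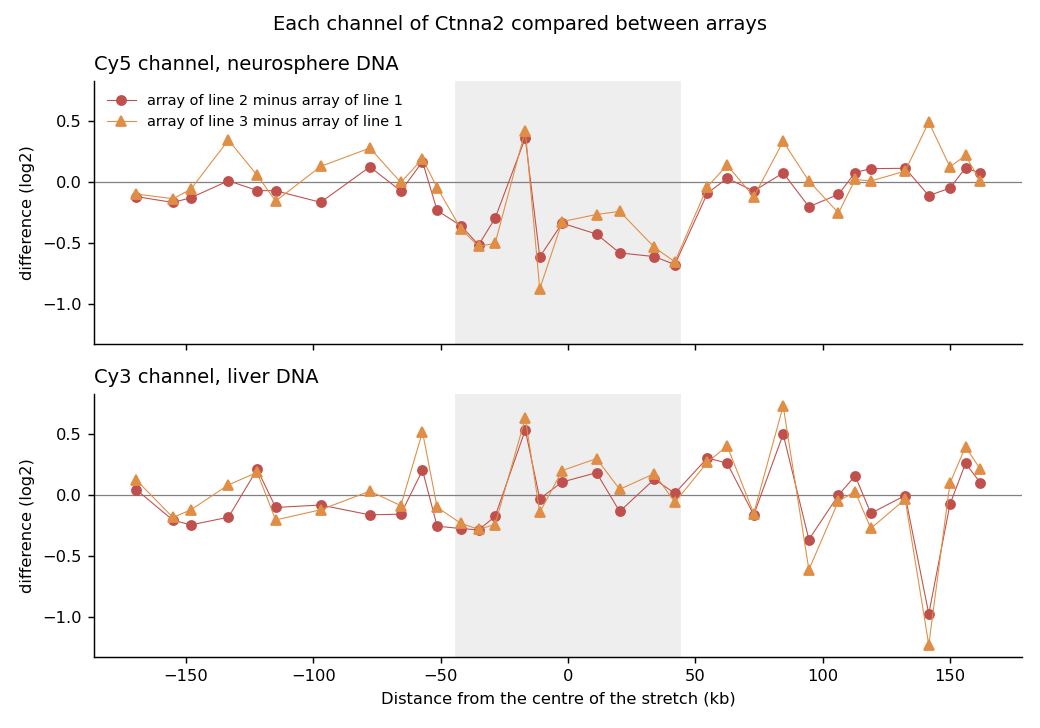
Difference in centred log2 signal between arrays (vertical axes) for the neurosphere channel (Cy5, upper panel) and the liver channel (Cy3, lower panel), by distance in kb from the centre of the stretch (grey). The Ctnna2 probes from 77505745 to 77837227 are shown. Circles are line 2 minus line 1 and triangles line 3 minus line 1. The stretch averages -0.41 and -0.39 in Cy5 and 0.01 and 0.04 in Cy3, with probe 4 above 0 in both channels.

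The authors' deposited scanner files also hold a p-value for each spot's log ratio, from the error model of the scanner software. Negative ratios with such a p-value below 0.01, a cut set here, were counted. They occurred at 8 probes of the stretch for line 2, 9 for line 3 and 4 for line 1. Across the autosomes their share was 0.682% for line 2, 1.19% for line 3 and 7.22% for line 1. Among the 103 other Ctnna2 probes there were 2, 2 and 8 in the same order. These p-values rest on the same ratios that chose the stretch and support nothing about it.

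The 113 Ctnna2 probes run from 76846192 to 77917467 on chromosome 6 (mm9), 1071 kb in all. Averaged over the whole gene, the log2 ratio was -0.13 for line 2, -0.09 for line 3 and -0.06 for line 1, with a mean of -0.09 ± 0.04 (SD, n = 3; limma, Benjamini-Hochberg adjusted p = 0.125). That value contains the chosen stretch. Without it the mean was -0.04 ± 0.03 (SD, n = 3), below 0 in each line, and the limma adjusted p was 0.456. The whole-gene average thus hides the stretch, which holds fewer than 1 in 10 of its probes.

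Outside the stretch the gene was even along its length. In 4 consecutive sections of 26, 26, 26 and 25 probes, line 2 had mean log2 ratios of -0.08, -0.05, -0.13 and -0.02. Line 3 had -0.04, 0.01, -0.10 and 0.04, and line 1 had -0.09, 0.02, -0.05 and 0.00. The mean of the stretch lay below that of each section in every line.

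A few single probes outside the stretch had high ratios. The following 2 are shown because their liver channel moved.
Probe at chr6:77138332-77138391: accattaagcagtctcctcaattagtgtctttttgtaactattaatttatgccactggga
Probe at chr6:77816961-77817020: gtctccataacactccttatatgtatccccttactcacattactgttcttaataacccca
The probe that starts at 77816961 stood at 1.20 in line 2 and 2.06 in line 3, against 0.33 in line 1. Its Cy3 level differed from that on the array of line 1 by -0.97 for line 2 and -1.23 for line 3, and its Cy5 level by -0.11 and 0.49. The probe that starts at 77138332 stood at 0.68 and 1.63, against -0.14, with Cy3 differences of -1.14 and -1.29. At these probes, unlike the mean of the stretch, the larger difference between arrays lay in the liver DNA. Another high probe, which starts at 77050615, stood at 1.37 for line 2, 1.64 for line 3 and 1.20 for line 1 and was not well above background in every channel and array.

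**Figure D3:**
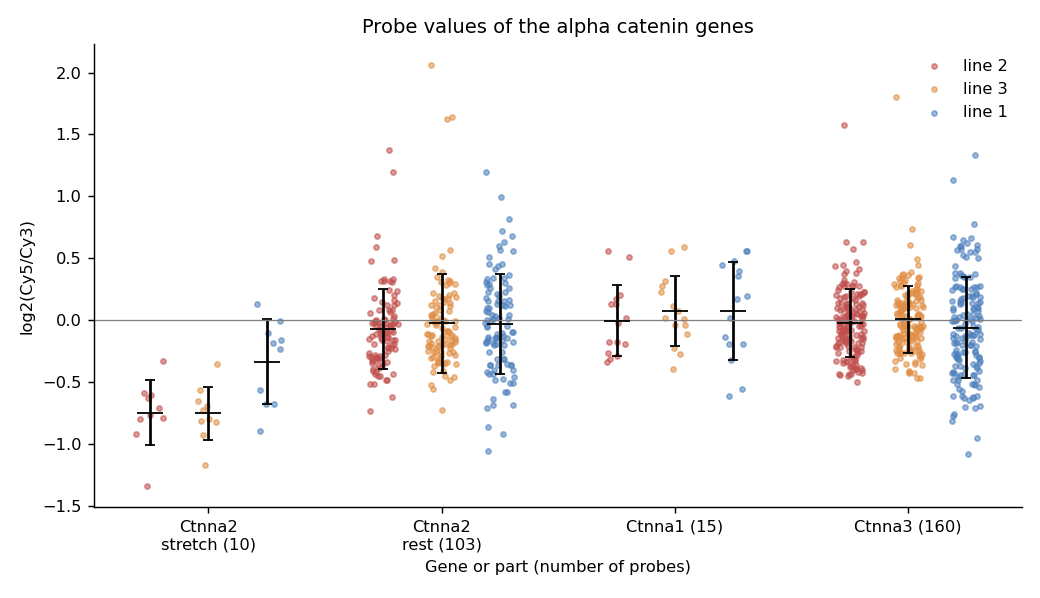
Log2 of Cy5 over Cy3 (vertical axis) for every alpha catenin probe, grouped as the Ctnna2 stretch, the rest of Ctnna2, Ctnna1 and Ctnna3, with the number of probes in brackets and line 2, line 3 and line 1 side by side. Points are probes, and bars are the mean and 1 SD over probes. The stretch averages -0.75, -0.75 and -0.34, and every other group averages between -0.07 and 0.08.

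Ctnna1, the broadly expressed alpha catenin, held no run of probes as low. Its 15 probes run from 35280102 to 35409187 on chromosome 18 (mm9), 129 kb. They averaged a log2 ratio of 0.00 for line 2, 0.07 for line 3 and 0.08 for line 1, a mean of 0.05 ± 0.05 (SD, n = 3), and the limma adjusted p was 0.397. Single probes spanned -0.34 to 0.56 in line 2, -0.40 to 0.59 in line 3 and -0.61 to 0.56 in line 1. Its 6 runs of 10 probes had means of -0.01 to 0.05 in line 2, 0.06 to 0.15 in line 3 and 0.02 to 0.14 in line 1. The Ctnna2 stretch lay below the mean of Ctnna1 by 0.74 for line 2, 0.83 for line 3 and 0.41 for line 1.

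Ctnna3, the alpha catenin of heart and testis, is the longest of the family, with 160 probes from 62902046 to 64466050 on chromosome 10 (mm9), 1564 kb. It averaged -0.02 for line 2, 0.01 for line 3 and -0.06 for line 1, a mean of -0.03 ± 0.03 (SD, n = 3), and the limma adjusted p was 0.661. The stretch in Ctnna2 lay below this gene by 0.72 for line 2, 0.76 for line 3 and 0.28 for line 1. The 151 runs of 10 probes within Ctnna3 spanned -0.23 to 0.27 in line 2, -0.13 to 0.17 in line 3 and -0.33 to 0.30 in line 1. Its probes held 36.7% G and C on average.

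Along Ctnna3 the ratio was highest in the first 40 of its probes, at 0.05 for line 2, 0.06 for line 3 and 0.04 for line 1. In the last 40 it was -0.10, -0.03 and -0.09. No Ctnna3 probe had a log2 ratio of -0.5 or less in line 2 or line 3, while 22 of the 160 had one in line 1. Across all autosomal probes this share was 1.37% for line 2, 2.08% for line 3 and 10.2% for line 1, the noisiest array. The highest Ctnna3 probe in lines 2 and 3, which starts at 63040182, stood at 1.57 in line 2 and 1.80 in line 3, against 0.58 in line 1. Its Cy3 level differed from that on the array of line 1 by -0.87 for line 2 and -0.50 for line 3, and its Cy5 level by 0.13 and 0.71. The larger of these differences lay in liver DNA for line 2 and in neurosphere DNA for line 3.

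**Figure D4:**
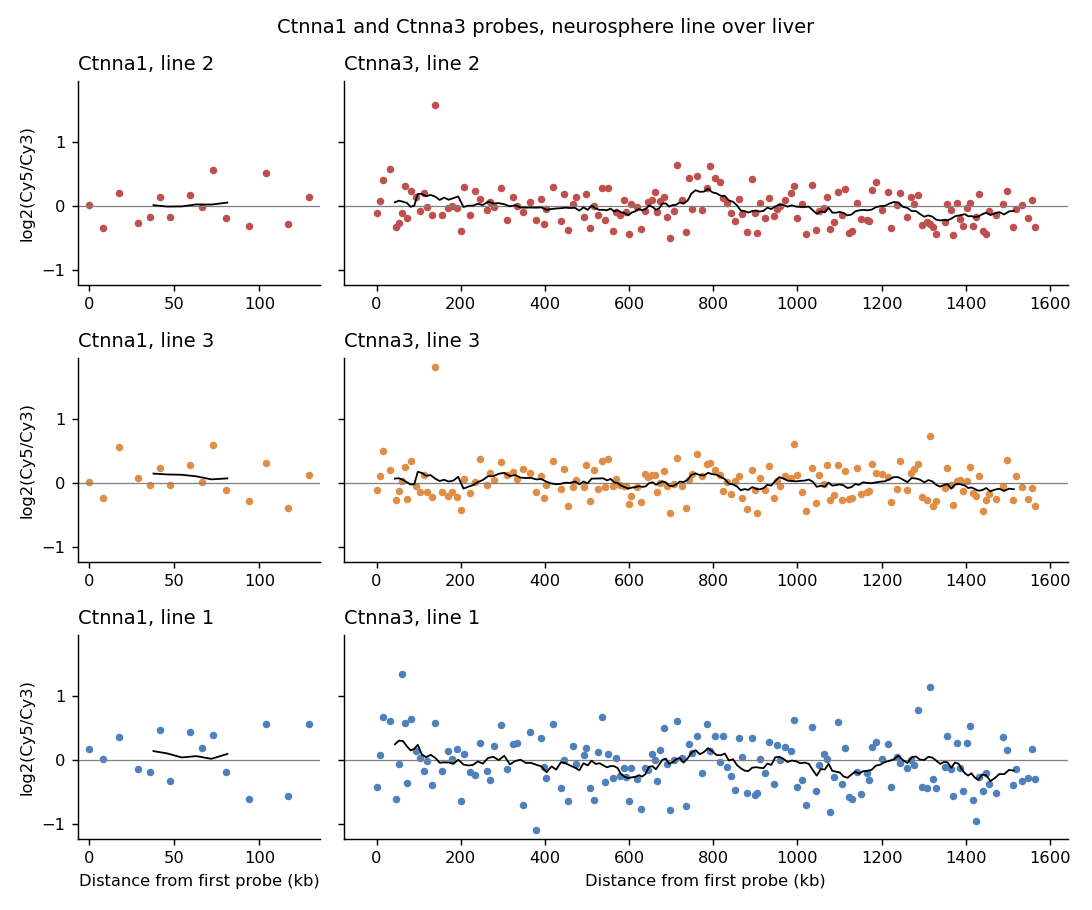
Log2 of Cy5 over Cy3 (vertical axes) for the 15 Ctnna1 probes (left) and the 160 Ctnna3 probes (right) by distance in kb from the first probe of each gene, with a row each for line 2, line 3 and line 1. Points are probes and black lines are running means of 10 probes. The running mean of Ctnna3 stays between -0.33 and 0.30 in all lines, and that of Ctnna1 between -0.01 and 0.15.

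The gene tests stand against a wide background. Of 9431 genes with at least 3 probes, 24.1% passed a limma adjusted p of 0.05 (2275 genes), 14.2% above 0 and 9.92% below. With lines 2 and 3 averaged as 1 animal, 730 passed. Gene means across all 9431 had a median of 0.01, and 5% lay below -0.19 and 5% above 0.23. Among the 48 genes with at least 100 probes, 1 passed, and their median was -0.06. The means of Ctnna1, Ctnna2 and Ctnna3 all lay inside this range.

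Neighbouring genes were read by their own names on the array. Next to Ctnna1, the transcript AK161373 averaged 0.16 (limma adjusted p = 0.0249) and Sil1, a co-chaperone of the endoplasmic reticulum, averaged 0.05 (limma adjusted p = 0.407). Next to Ctnna3, Dnajc12, a member of the DnaJ family of co-chaperones, averaged 0.16 (limma adjusted p = 0.0409), and the 2 probes of AK076946 averaged -0.16. Ctnna2 stands alone, with its nearest named neighbours 3298 kb before and 415 kb after it and 1 probe each. AK029727, the one before, stood at -0.28 for line 2, -0.29 for line 3 and -0.04 for line 1. Reg3a, a secreted lectin, lies after it and stood at 0.16, 0.17 and 0.08. None of the 4 Lrrtm genes had a probe of its own name on the array, so the genes that share their place with the alpha catenins were not read separately.

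Beta-catenin and plakoglobin are the armadillo proteins that bind alpha catenins, while the p120 family binds cadherins directly and plakophilins belong to desmosomes. A list of 11 armadillo genes and relatives of alpha catenin held 8 with at least 3 probes. Of these 8, 3 passed the limma threshold, all above 0, beside 14.2% of all genes tested above 0 and 24.1% in either direction. Means of the 8 over the lines ran from 0.04 to 0.28, so no such mean lay below 0, though some values of single lines did. The median of these means was 0.10. Ctnnd1, which encodes p120-catenin, averaged 0.25 for line 2, 0.34 for line 3 and 0.24 for line 1 (limma adjusted p = 0.00615). Vcl, which encodes vinculin, a relative that alpha catenin recruits to strained junctions, averaged 0.16, 0.20 and 0.28 (limma adjusted p = 0.0122). Pkp1, a plakophilin of desmosomes, averaged 0.21, 0.12 and 0.21 (limma adjusted p = 0.0207). Over the lines these 3 genes averaged 0.28, 0.21 and 0.18, each larger in size than the whole-gene mean of Ctnna2, -0.09. That comparison is uneven, since they were named for passing and have 4, 12 and 6 probes, against 113 in Ctnna2. Means of genes with at least 100 probes ran from -0.14 to 0.13, against -0.57 to 0.60 for all genes tested. All 3 genes were smaller in size than the stretch in lines 2 and 3. The stretch was chosen for its low ratios, so nothing is read from that contrast.

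Ctnnal1, an alpha catenin-like gene, averaged 0.09, from -0.01 for line 2, -0.05 for line 3 and 0.33 for line 1. Ctnnd2, the delta catenin of neurons, averaged 0.08 over 83 probes, and neither gene passed. Ctnnb1, the beta-catenin gene, had 2 probes and stood at 0.16 for line 2, 0.04 for line 3 and 0.32 for line 1. Jup, which encodes plakoglobin, also had 2 and stood at 0.15, -0.08 and 0.12. Both were below the minimum number of probes for the test.

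A list of 19 cadherins held 17 with at least 3 probes. Most of them bind catenins through their cytoplasmic tail, which Cdh13, or T-cadherin, lacks. Cdh3, or P-cadherin, passed above 0 with a mean of 0.23 (limma adjusted p = 0.00771), and Cdh19, a cadherin of Schwann cell precursors, passed below with a mean of -0.16 (limma adjusted p = 0.0255). The median of the 17 was -0.04, and the 2 that passed are a smaller share than the 24.1% of all genes tested. Of 14 actin-binding and nectin partners, 10 were tested and 1 passed, also below that share. Pvrl1, the older name of Nectin1, averaged -0.22 for line 2, -0.47 for line 3 and -0.45 for line 1 (limma adjusted p = 0.00537). Its order of lines differed from that of the stretch, since line 1 was among the lower.

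**Figure D5:**
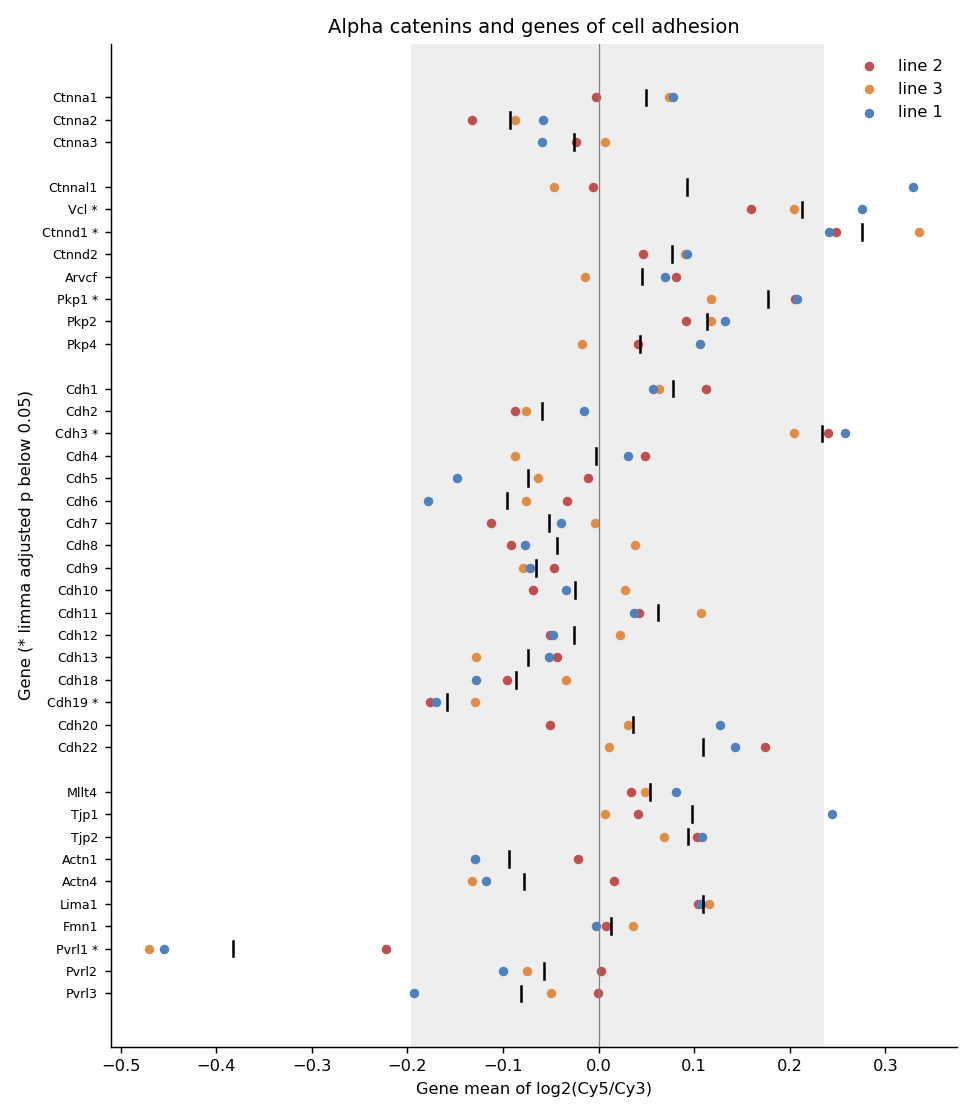
Mean log2 of Cy5 over Cy3 per gene (horizontal axis) for the alpha catenins and, below them, the tested armadillo genes and relatives, cadherins, and actin and nectin partners. Points are lines 2, 3 and 1, ticks are their mean, the grey band is the middle 90% of all 9431 genes (-0.19 to 0.23), and asterisks mark a limma adjusted p below 0.05. The alpha catenins lie inside the band, and Pvrl1 has the lowest mean, -0.38.

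Likeness to the stretch was measured as the Euclidean distance between sets of 3 line values. Of 9431 genes, the closest were Kctd3 at 0.425, Zfp558 at 0.443 and 4930584F24Rik at 0.460, each with 3 probes. Kctd3 averaged -0.40 for line 2, -0.52 for line 3 and -0.43 for line 1. Of 16125 runs of 10 probes that neither overlap each other nor the stretch, the closest was in Nell1 on chromosome 7, at a distance of 0.585, with values of -0.29, -0.39 and -0.42. That run had a difference of lines 2 and 3 from line 1 of -0.08 in Cy5 and -0.14 in Cy3, against -0.40 and 0.02 in the stretch. The next runs were one named for ENSMUST00000097576 on chromosome 18, at 0.586, and one without a gene name on chromosome 8, at 0.606. In none of these 3 genes and 3 runs, picked by that distance, was line 1 above lines 2 and 3 by as much as in the stretch. Such gaps were not confined to the stretch, however. Among all 161179 autosomal runs, 290 had a ratio difference of lines 2 and 3 from line 1 of -0.3 or less. Of these, 7 held a probe of the stretch. The lowest ratio difference of any run was -0.52, against -0.41 in the stretch. In Cy5 the lowest was -0.62, against -0.40.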

How the data were processed

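Genomic DNA of 3 lines was compared with liver DNA on 2-colour arrays of 180880 spots, 6575 of them controls. Per the file headers, the deposited processed intensity values come from Agilent Feature Extraction 10.7.3.1, with background subtraction, detrending and linear dye normalisation by the authors, and coordinates are mm9. The deposited scanner files also give a p-value for each spot. The deposited value table holds log10 ratios whose column medians were -0.00172 (line 2), -0.00307 (line 3) and 0.000158 (line 1). Regressing the scanner ratios on it gave slopes of 1.01, 0.998 and 1.00 and correlations of 0.839, 0.881 and 0.863 across probes, which settles scale and direction. Its centring and correction are not given in the sources used here.

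From the deposited intensities, log2 of Cy5 over Cy3 was computed with no pseudocount, leaving out controls and outlier spots. Spots of 1 probe were averaged, and each array was centred on its autosomal median. Means of genes with at least 3 probes, all on 1 chromosome, were tested against 0 with limma 3.58.1 in R 4.3.3 (lmFit, eBayes, 2-sided, Benjamini-Hochberg). The same test was run on simulated data with noise independent between lines, which did not model the animal shared by lines 2 and 3. A further 31 names that occur on several chromosomes were left out. The spread between neighbouring probes is the interquartile range of their differences scaled to an SD. Other steps used Python 3.11.15, numpy 2.4.6 and pandas 2.3.3.

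The genes, the stretch, the gene lists and the naming rule were chosen with earlier results of these data known. The rule names the 3 alpha catenins, the Lrrtm genes, the nearest named neighbours, Ctnnal1, Vcl, Ctnnb1, Jup, Ctnnd1 and Ctnnd2, list members past the threshold, and the 3 genes and 3 runs most like the stretch. Gene names are those of the array design. A GRCm38.p6 gene table served for synonyms and gene order. The number of arrays limits the precision. Alternatives covered background correction, dye normalisation, the value table, dim probes, outlier spots, centring, the summary over probes, the edges, probes per gene, shared animals and single lines.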

Additional observations from a re-analysis of the deposited data

How the results depend on the processing

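Of 119 alternative values, 112 kept their direction and their side of the threshold or stayed within the spread. The mean of the Ctnna2 stretch ranged from -0.75 to -0.51, its difference from the rest of the gene from -0.70 to -0.48, its Cy5 difference between arrays from -0.51 to -0.37 and its Cy3 difference from -0.12 to 0.12. Without line 1 the mean of the stretch was -0.75, and without line 2 or line 3 it was -0.54. The alternatives for probe base composition, the last 6 probes, centring on the flanking probes and leaving out a line of the stretch were chosen after seeing the data. Of the gene means, 2 reversed: Ctnna1 was -0.0052 with normexp background correction, and Ctnna3 was 0.0089 in the value table. Their causes were not tested, and limma gave adjusted p of 0.283 to 0.942 for Ctnna1 and 0.509 to 0.908 for Ctnna3 over all alternatives. Adjusted p ranged from 0.0542 to 0.485 for Ctnna2 and from 0.230 to 0.810 for Ctnna2 outside the stretch. The number of genes past the limma threshold was 4767 when genes of 1 or more probes entered (21107 tested), 749 when only those of 10 or more did (2759 tested), and 730 with lines 2 and 3 as 1 animal, which leaves fewer samples. It ran from 1069 to 3193 on leaving out a line. No pairing by replicate number could be made, since all lines form 1 group. The probes of the stretch were all well above background in every array, but its values in line 1 depended on the processing. The stretch mean of line 1 was -0.34, against -0.21 with normexp, -0.28 with loess and -0.24 in the value table. Probes 1 to 3 of line 1 averaged -0.64, against -0.38, -0.46 and -0.43 in the same order. The stretch mean of lines 2 and 3 stayed between -0.84 and -0.67 over these settings.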
